A study of Mus musculus with 6 samples.

Results

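Very large clones of CD8 T cells were compared with small clones in intracranial CT2A gliomas of mice, separately at day 13 and day 19. The clones were selected on measured values: a cell needed exactly 1 TRA and 1 TRB receptor chain, at least 5000 gene UMIs, at most 10% mitochondrial UMIs, at least 1 Cd8a or Cd8b1 UMI, and no Cd4 UMI. A UMI, or unique molecular identifier, counts 1 captured RNA molecule. Cells of a clone had the same CDR3 nucleotides in both chains within a contig set. The CDR3 is the most variable receptor loop, and a contig set is the group of barcodes in 1 of the 4 deposited receptor tables of a day. A very large clone held at least 10 cells and a small clone 2 to 4. At day 13 there were 14 very large clones with 252 cells and 101 small clones with 253 cells, out of 2135 CD8 cells that met the rule and 8359 barcodes with a receptor contig. At day 19 there were 5 very large clones with 178 cells and 56 small clones with 137 cells, out of 1179 and 4295. A pair of CDR3 sequences found in several sets counts as 1 clone in each, so a small clone may share its pair with a very large one. Of the small clones, 6 at day 13 (17 cells) and 15 at day 19 (37 cells) had their pair in another set.

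All mice were WT C57BL/6J of 6 to 8 weeks with tumors of CT2A, a mouse glioma line implanted in the brain, and T cells positive for CD3 with CD4 or CD8 were sorted before loading on 10x Genomics 5' chemistry. Day 13 used 16 mice, with 4 pooled in each replicate, and day 19 used 4. Each day was 1 capture with an RNA, an antibody tag and a receptor library. The matrices also hold 4 multiplexing tags per day, which were not used here. The labels tie neither these tags nor the contig sets to animals, and 5 of the 14 and 4 of the 5 very large clones had cells with the same pair in another set of their day, so the sets are not replicates here and no test across animals was made.

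Values are CPM, or the UMIs of a gene scaled to a common total of all gene UMIs in the summed cells of a clone or size group, and ratios are log2 of the very large over the small sum with exact 95% intervals. These intervals, and those of shares, cover counting error only. A gene is said to rise or fall where its sums differed at least 2-fold, it had at least 50 UMIs in both sums together, and at least 11 of 14 clones at day 13, or 4 of 5 at day 19, lay on that side of the small-clone level.

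CD8 T cells that meet antigen for long periods in a tumor pass from a progenitor state to terminal exhaustion. Progenitor cells keep the transcription factor TCF1, encoded by Tcf7, with the receptor Slamf6, and can renew themselves. Terminally exhausted cells carry several inhibitory receptors, among them TIM-3 (Havcr2) and PD-1 (Pdcd1), and divide less. Each naive T cell builds its own receptor by joining V and J segments with random bases between them, so cells with the same pair of CDR3 sequences are usually descended from the same cell.

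The very large clones are named by day and rank in number of cells that met the rule. Over all barcodes with 1 TRA and 1 TRB chain the order differed, with 44 cells in 13L and 32 in 13A. Clones 13A to 13N held 32, 31, 29, 24, 21, 19, 15, 13, 13, 12, 12, 11, 10 and 10 cells, and clones 19A to 19E held 71, 47, 27, 22 and 11. At day 13, 9 of them lay in set 2, 4 in set 3 and 13A alone in set 4, and set 1 had none. At day 19, 19A and 19C lay in set 2, 19B in set 3, and 19D and 19E in set 4. The 14 day-13 clones used 12 TRBV segments and the 5 day-19 clones 4. No very large clone had its nucleotide pair on the other day except 19E, whose pair was in 1 day-13 cell with a barcode not used at day 19. The tables of a day shared no barcode, and 58 contig barcodes occurred on both days.

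Clones 13A, 19B and 19C used the same segments, an alpha chain of TRAV7D-2 and TRAJ7 and a beta chain of TRBV16 and TRBJ2-7. Their CDR3 sequences are shown because this combination was carried by 2 of the 5 very large clones of day 19, or 74 of 178 cells. TRAV7D-2 has a near-identical copy, TRAV7-2, and both were counted for the combination. It was found in 1 of 56 small clones and 0 of 767 single cells at day 19, and in 1 of 14 very large clones, 1 of 101 small clones and 2 of 1491 single cells at day 13. These counts are by contig set, and the small clones with the combination held 2 cells on each day. Clone 19B had 2 cells with its own nucleotide pair in other sets of its day, and 13A had 3. The counts outside very large clones therefore need not be separate recurrences. Capitals mark the bases that differ from the clone named beside them, with positions counted from 1 at the 5′ end of the CDR3.
13A TRA, against 19B: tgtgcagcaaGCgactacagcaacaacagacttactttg
19B and 19C TRA, against 13A: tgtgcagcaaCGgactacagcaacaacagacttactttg
13A TRB, against 19B: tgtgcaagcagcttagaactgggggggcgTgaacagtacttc
19B TRB, against 13A: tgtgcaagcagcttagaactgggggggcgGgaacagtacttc
19C TRB, against 13A: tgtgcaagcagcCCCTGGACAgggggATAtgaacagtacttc
The alpha chains of 13A and 19B differed at G11C and C12G, which changed 1 amino acid, and those of 19B and 19C were identical. The beta chains of 13A and 19B differed at T30G, which left the amino acids the same, and that of 19C differed from 13A at 12 of 42 bases and 4 amino acids. The amino acid sequence of the 13A beta chain was found in 49 day-19 cells, which include the 47 of 19B and the 2 with its pair in other sets.

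Clone 13H had a receptor that recurred on the other day in another nucleotide form. It was singled out after its values were seen. A day-19 clonotype of 6 cells in 2 sets had the same TRAV3D-3, TRAJ22, TRBV13-3 and TRBJ2-5 segments and the same amino acids in both chains. Its alpha CDR3 was identical in nucleotides and its beta CDR3 differed at T15C and C18T, in capitals below.
TRA of 13H and of the day-19 clonotype: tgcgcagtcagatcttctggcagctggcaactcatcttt
13H TRB: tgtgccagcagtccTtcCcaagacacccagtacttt
Day-19 TRB: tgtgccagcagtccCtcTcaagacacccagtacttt
The alpha chain amino acids of 13H were present in 7 clonotypes and 30 cells over 3 sets at day 13, and in 3 clonotypes and 8 cells at day 19. One of these, a clone of 9 cells just under the size limit, paired it with TRBV17, and its beta chain differed from that of 13H at 5 of 36 bases.

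The size groups had like depth on day 13 and differed on day 19. Median gene UMIs per cell were 8696 in very large and 8570 in small clones at day 13, and 11371 and 10104 at day 19. The summed UMIs were 2958986 and 2728511 at day 13, and 2258137 and 1710290 at day 19. The 9 T cell and CD8 label genes summed to 6830 CPM in very large and 6312 CPM in small clones at day 13, and to 7675 and 5503 CPM at day 19, with Cd4 at 0 by the rule. Erythroid genes were at or near 0. RNA of macrophages and microglia was present: 13.9% of cells in very large and 20.2% in small clones had at least 2 UMIs of a myeloid marker set at day 13, and 27.5% and 47.5% at day 19. The 19 myeloid genes summed to 6709 and 6226 CPM at day 13, where 14 of them were lower in very large clones, and to 4949 and 8196 CPM at day 19, where 17 were lower. Without Ly6c2, which CD8 T cells also express, the sums were 3417 and 3844 CPM at day 13 and 3195 and 6519 CPM at day 19. The day-13 order was not that of each set. C1qa, of complement, was higher in very large than in small clones of sets 2 and 3, at 115.8 against 84.1 CPM and 387.2 against 111.5 CPM, and lower in set 4, at 37.3 against 548.7 CPM. The small clones of set 1, which had no very large clone, were at 660.5 CPM of it. Apoe was likewise higher in sets 2 and 3, at 373.6 against 172.6 CPM and 567.7 against 172.9 CPM, and lower in set 4, at 51.99 against 1313 CPM. Of 11 dendritic markers 9 were lower at day 13 and 10 at day 19, with sums of 2130 and 2613 CPM, and 1575 and 2221 CPM. No doublet caller was run, and a droplet with a T cell and a myeloid cell passes the receptor rule.

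Of 7935 genes with enough UMIs at day 13, 6 rose (0.0756%) and 54 fell (0.681%). Of 7031 at day 19, 40 rose (0.569%) and 168 fell (2.39%). The median of all genes was -0.01 and -0.03. Without the cells with myeloid RNA, 67 genes fell at day 19.

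Tcf7 was lower in the very large clones on both days, and most of the other progenitor genes at day 13. Tcf7 fell at day 13: the small clones had 105.9 CPM and the very large clones 35.8 CPM, which is -1.56 in log2 (-1.90 to -1.24), or -1.14 without 13A. The very large clones ranged from 0 to 113.4 CPM around a median of 33.0, with 13 of 14 below the small-clone level and 13A, 13G, 13I and 13J at 0. The highest, 13D, had 17 of its 24 Tcf7 UMIs in 1 cell. The small clones overlapped them, with 33 of 101 at 0, a median of 78.4 and a highest value of 650.5 CPM. Within sets, very large and small clones had 50.9 and 121.1 CPM in set 2, 38.1 and 118.1 in set 3, and 0 and 100.8 in set 4. It also fell at day 19, with 56.7 CPM in small clones and 5.76 CPM in very large ones, -3.30 in log2 (-4.26 to -2.46), the latter from 13 UMIs in 5 of 178 cells. Clones 19A to 19E had 4.08, 9.52, 0, 5.92 and 7.43 CPM, all below the small-clone level, although 33 of 56 small clones were also at 0.

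Of the 15 progenitor and memory genes with enough UMIs at day 13, 14 had a negative ratio, with a median of -0.80, and 3 fell. Besides Tcf7 these were Satb1, a chromatin organizer of T cells, at -1.12, and Klf2, a factor that drives exit into the blood, at -1.21. Without 13A the list median was -0.53, and Satb1 and Klf2 were at -0.70 and -0.90, under 2-fold. Slamf6, at 28.1 CPM in very large and 48.7 CPM in small clones, was at -0.80 (-1.21 to -0.39), short of 2-fold. Lef1, Bach2 and Id3, transcription factors of memory cells, were at -0.62, -0.78 and -0.84, and the chemokine receptor gene Ccr7 at -0.80. Dendritic cells also express Ccr7, and 1 cell of 13J, the clone with the highest sum of dendritic markers, held 128 of its 370 UMIs in very large clones. S1pr1, a receptor for tissue exit, was at -1.38 but with 10 of 14 clones below. Myb was the positive member, at 0.17. Of the 16 genes, 8 had enough UMIs at day 19, 5 with a negative ratio, with a median of -0.54. Again 3 fell: Tcf7, Klf2 at -1.74 and Xcl1, a chemokine that attracts dendritic cells, at -2.64. Slamf6 had 7 and 42 UMIs there, below the minimum. The 3 members with a positive ratio were Ltb, a lymphotoxin subunit, at 0.23, the costimulatory receptor Cd28 at 0.18 and Il7r, the IL-7 receptor chain, at 0.06, the last with 213.3 CPM in 19A and 29.7 to 120.9 in the other clones. The day-19 median was -0.11 without cycling cells, and it turned to 0.02 without set 4.

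**Figure D1:**
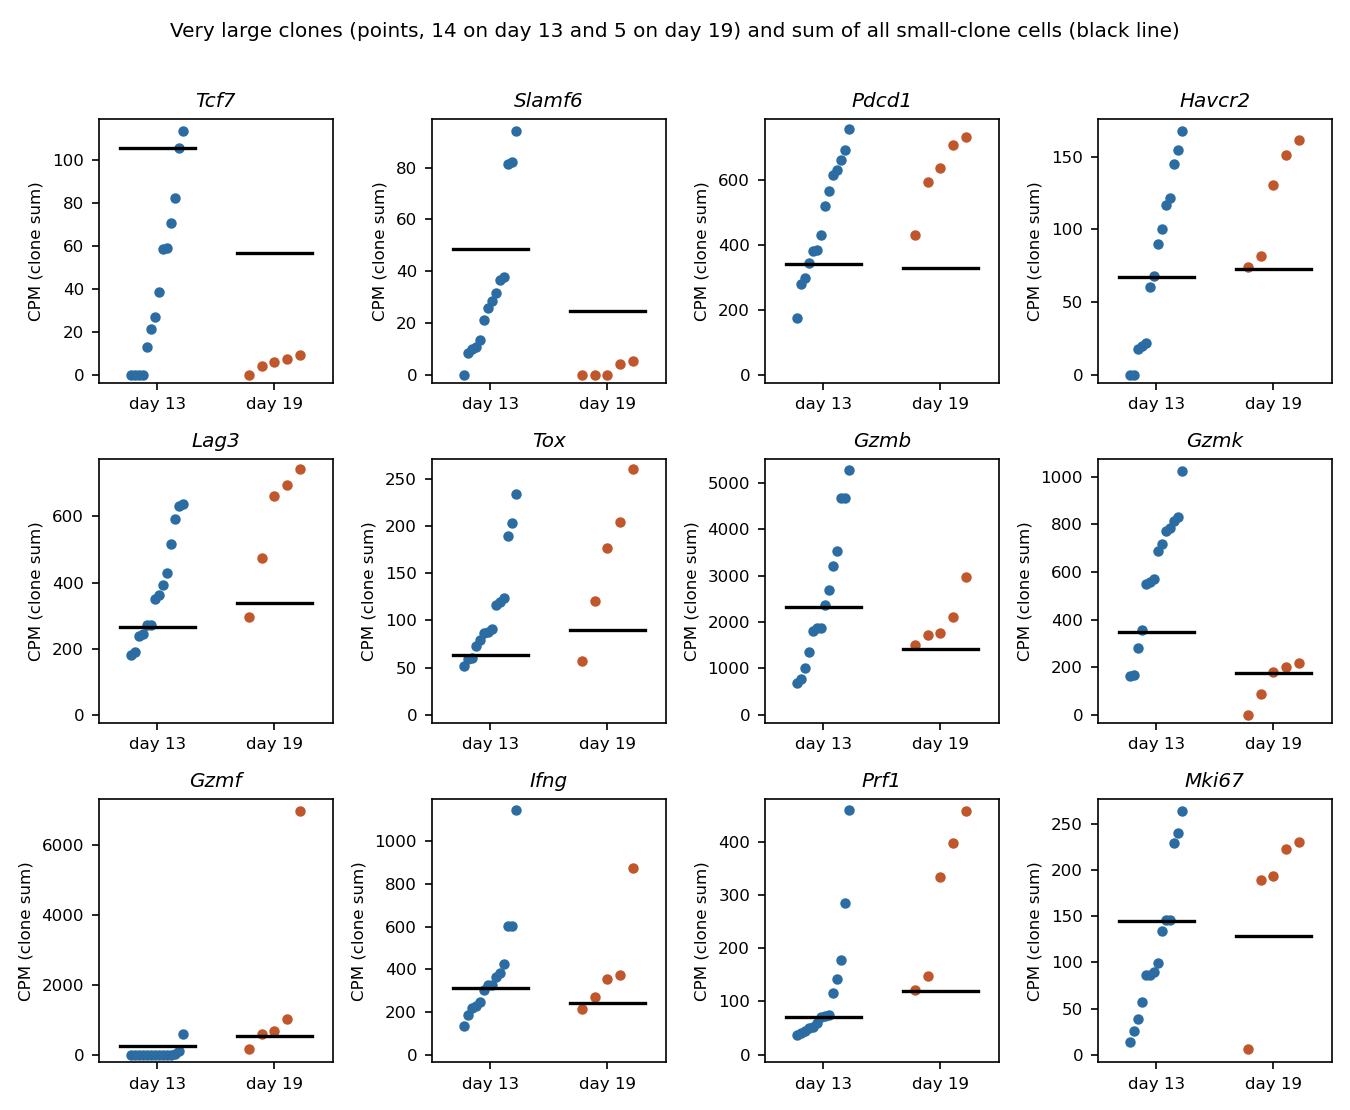
CPM of 12 genes in each very large clone at day 13 and day 19 (points, 1 per clone), with the level of the summed small clones of the same day as a black line. Tcf7 lies below the line in 13 of 14 and 5 of 5 clones, Pdcd1 above it in 11 of 14 and 5 of 5, and Gzmk is spread around it at day 19.

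Inhibitory receptors and other terminal exhaustion genes mostly had the opposite sign. On each day 14 of 16 genes had a positive ratio, with a median of 0.34 at day 13 and 0.64 at day 19, and none passed the rule. The largest ratio at day 13 was that of Cd244a, an inhibitory receptor of the SLAM family, at 1.004 with 7 of 14 clones above the small level, and 0.63 without 13A. Pdcd1 had 492.1 CPM in very large and 339.4 CPM in small clones at day 13, a log2 ratio of 0.54 (0.42 to 0.66), with clones from 175.6 to 755.9 CPM around a median of 474.7 and 11 of 14 above the small-clone level. At day 19 it had 578.8 and 329.8 CPM, a ratio of 0.81 (0.67 to 0.96), and 19A to 19E had 634.3, 428.5, 732.0, 591.9 and 705.6 CPM, all above that level. Havcr2 had 89.2 and 67.1 CPM at day 13, a ratio of 0.41 (0.13 to 0.69), and 13C and 13H had none. This ratio rested on 13A, without which very large clones had 67.0 CPM, level with the 67.1 CPM of small clones. At day 19 it had 136.0 and 73.1 CPM, a ratio of 0.90 (0.59 to 1.21), with 161.6, 151.0, 130.5, 74.0 and 81.7 CPM in the 5 clones. So 19A to 19C were well above the small-clone level, and 19D and 19E were close to it. Lag3, an inhibitory receptor for MHC class II, had ratios of 0.31 and 0.91. Tox, a transcription factor of exhausted cells, had 0.63 and 0.64, with 4 of 5 day-19 clones above the small level and 19A below it at 57.1 CPM. Entpd1, the ectonucleotidase CD39, had 0.82 and 0.64, with 12 of 14 and 5 of 5 clones above.

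Shares of cells were compared next. Each cell was thinned to 5000 UMIs and placed in 1 of 4 classes by a UMI of Tcf7 or Slamf6 and of Havcr2. At day 13, 20.2% (15.5 to 25.7) of very large and 42.7% (36.5 to 49.0) of small-clone cells had Tcf7 or Slamf6 only, against 68.3% of single cells. Havcr2 only was seen in 25% (19.8 to 30.8) of very large, 15.02% (10.9 to 20.03) of small-clone and 2.48% of single cells. Among the very large clones of day 13 this share went from 0% in 13C, 13E and 13H to 59.4% of the 32 cells of 13A, which weighs on the pooled value. At day 19, Tcf7 or Slamf6 only was found in 0.562% of very large cells, which is 1 cell (0.0142 to 3.09), and in 27.7% (20.4 to 36.0) of small-clone cells, and Havcr2 only in 43.8% (36.4 to 51.4) and 17.5% (11.6 to 24.9). Without thinning the shares were 23.4% and 47.0% for Tcf7 or Slamf6 only and 30.2% and 22.5% for Havcr2 only at day 13, and 0.562% and 27.0%, and 67.4% and 33.6%, at day 19. Among barcodes without T cell marks, whose median depth was 9161 UMIs at day 13 and 9588 at day 19, 9.84% and 11.2% had a Tcf7 or Slamf6 UMI when thinned alike. The 2.81% of day-19 very large cells with such a UMI lies below that level. Those barcodes are other cell types that may express these genes themselves, so they are no measure of free RNA. They had Havcr2, which myeloid cells express, in 36.7% and 31.7%. Without the cells with myeloid RNA, Havcr2 only was in 23.0% and 12.9% at day 13 and in 45.7% and 18.1% at day 19.

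**Figure D2:**
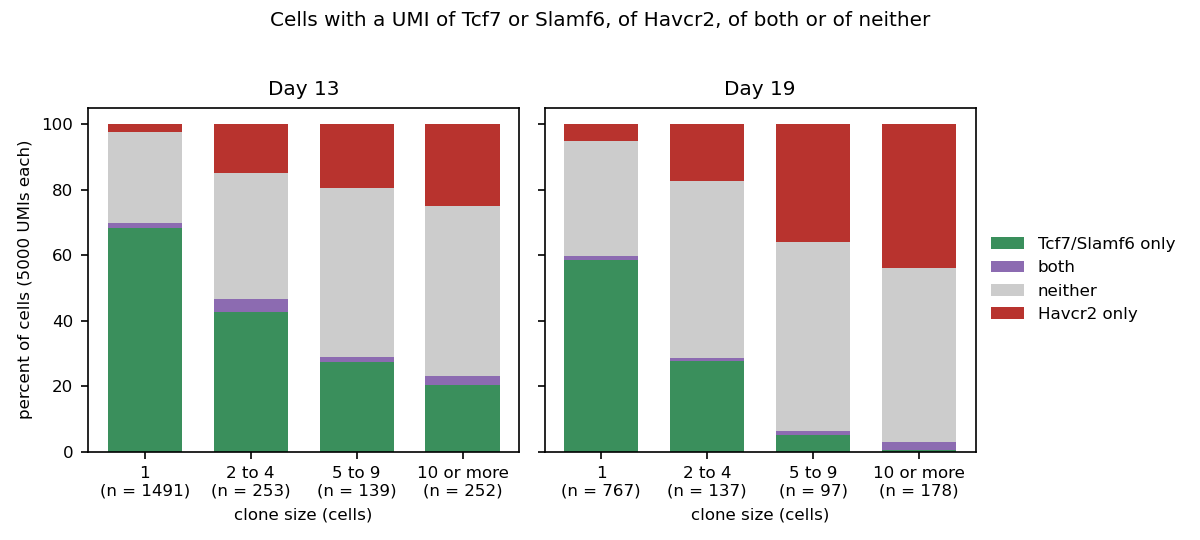
Percent of cells in 4 classes (Tcf7 or Slamf6 only, Havcr2 only, both, neither), thinned to 5000 UMIs, for single cells and clones of 2 to 4, 5 to 9 and at least 10 cells, at each day. The share with Tcf7 or Slamf6 only goes from 68.3% in single cells to 20.2% in very large clones at day 13 and from 58.5% to 0.562% at day 19.

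Clones next to the size limit of 10 cells are given here, with size counted over cells that met the rule. Over all barcodes with 1 TRA and 1 TRB chain, 13J to 13N had 17, 12, 44, 11 and 14 cells. By that count 13J, 13L and 13N lay farther from the limit. Clones of 8 or 9 cells, just outside, had 57.4 CPM of Tcf7 and 330.2 CPM of Pdcd1 at day 13 (5 clones, 44 cells), and clones of 10 to 12 cells, just inside, had 29.0 and 435.0 CPM (5 clones, 55 cells). At day 19 the values were 5.71 and 469.9 CPM in 4 clones of 8 or 9 cells and 7.43 and 705.6 CPM in 19E, the only clone of 10 to 12. Tcf7 in all clones of 5 to 9 cells was 60.9 CPM at day 13 and 10.4 CPM at day 19.

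The very large clones of a day were not alike in their state classes. At day 13, 13E had Tcf7 or Slamf6 only in 66.7% of its 21 cells and 13C in 44.8% of 29, and neither had a cell with Havcr2 only. In 13A none of 32 cells had Tcf7 or Slamf6 only and 59.4% had Havcr2 only. In 13H 84.6% of cells had neither mark. At day 19 Havcr2 only ranged from 13.6% in 19D, where 86.4% had neither mark, through 36.4% in 19E, 37.0% in 19C and 49.3% in 19A, to 55.3% in 19B. Each very large clone held cells of 2 to 4 classes.

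**Figure D3:**
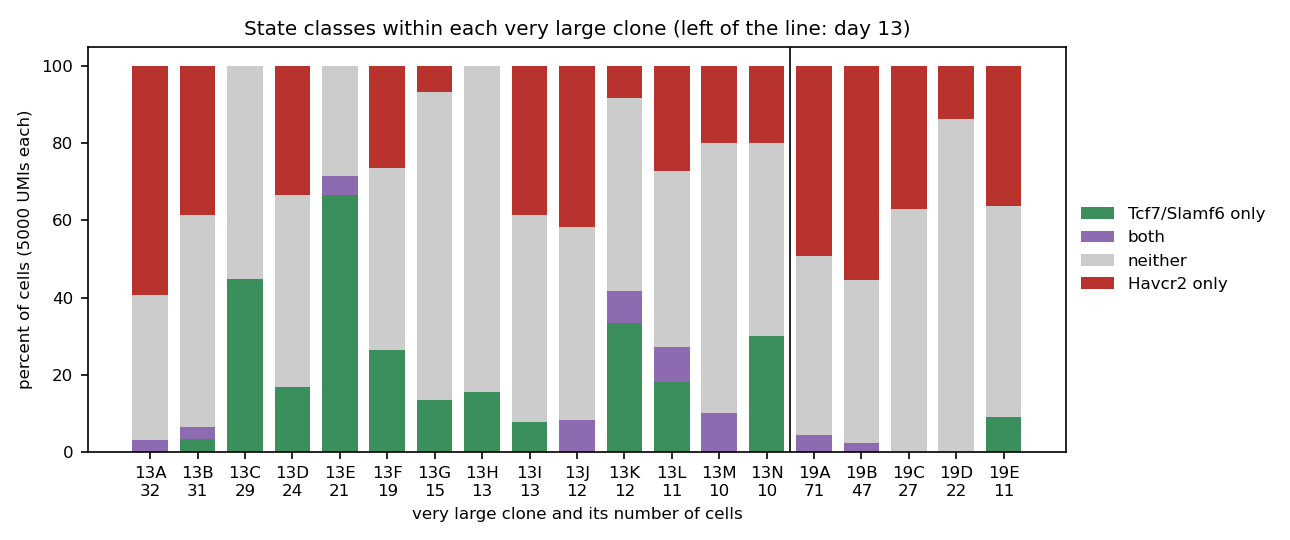
Percent of cells in the same 4 classes in each of the 19 very large clones, thinned to 5000 UMIs. Clones 13E and 13C have the largest shares with Tcf7 or Slamf6 only, at 66.7% and 44.8%, and no day-19 clone other than 19E, at 9.09%, has any.

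Among granule genes, Gzmk, a granzyme of transitional effector cells, had 543.4 CPM in very large and 346.0 CPM in small clones at day 13, a ratio of 0.65 (0.53 to 0.77), with clones from 163.8 to 1023 CPM around a median of 629.5 and 11 of 14 above the small level. Thinned cells carried a Gzmk UMI in 76.6% of very large and 56.1% of small clones. At day 19 the order was the other way, with 121.3 and 177.2 CPM, a ratio of -0.55 (-0.79 to -0.31), and 24.7% and 40.2% of cells. This rested on 19A, which had 1 Gzmk UMI in 71 cells, or 1.36 CPM. Clones 19B to 19E had 201.3, 89.1, 216.0 and 178.3 CPM, and the ratio was 0.02 without 19A. Prf1, the pore-forming perforin, rose at day 19 from 119.3 to 302.5 CPM, a ratio of 1.34 (1.12 to 1.58), with 120.9, 457.0, 397.8, 334.4 and 148.6 CPM in the 5 clones. All 5 lay above the small level, though 19A was above it by little. At day 13 Prf1 had a ratio of 1.02 with 8 of 14 clones above, which did not pass, and 0.41 without 13A.

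Gzmf, a granzyme of a closely related gene cluster whose members can share reads, rose at day 19 from 547.3 to 1493 CPM, a ratio of 1.45 (1.34 to 1.55). Clones 19A to 19E had 1032, 165.9, 6951, 668.9 and 594.2 CPM, and 1 cell of 19C held 1808 of the 3372 UMIs of very large clones. Without the top cell of each size group the ratio was 0.76, and without set 2 it was -0.24. Gzmc, of the same cluster, had 0.28 at day 19, or -0.06 without the top cell of each size group. At day 13 it had 1.17, but 10 of 14 clones had none, 303 of 402 UMIs lay in 1 cell and 375 in 13A, and the ratio without 13A was -2.31. Gzmb, the main cytotoxic granzyme, had 2237 and 2317 CPM at day 13, with clones from 686.5 to 5278 and a ratio of 0.20 without 13A, and 1895 and 1418 CPM at day 19, where 5 of 5 clones were above the small level. Gzma fell at day 19 from 901.0 to 430.4 CPM, but 5 of 178 very large cells held all of it and the ratio was -0.50 without 19A. Gzmm fell at day 13, at -1.04 from 20 and 38 UMIs, or -0.62 without 13A. Of the cytotoxic list 8 of 14 genes were positive at day 13, with a median of 0.14, and 12 of 15 at day 19, with a median of 0.31.

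Among secreted factors, Ifng, the interferon gamma gene, rose at day 19 from 242.6 to 509.7 CPM, a ratio of 1.07 (0.91 to 1.24). Clone 19A had 873.4 CPM and 19B to 19E had 374.0, 356.5, 272.3 and 215.4, so 4 of 5 lay above the small level and the ratio without 19A was 0.46. Csf1, a growth factor of macrophages, rose from 56.7 to 140.4 CPM, a ratio of 1.31 (0.98 to 1.65), with 224.1, 89.8, 146.4, 103.6 and 37.1 CPM in the 5 clones and 0.82 without 19A. At day 13 Ifng had 0.26 and no member of the list rose. Il2 fell there, from 57 UMIs in small clones to 0, and 47 of the 57 lay in 1 cell. Against a floor of 3 counts over the group its ratio was at most -4.37, and -1.86 without that cell. Tnfrsf9, the costimulatory receptor 4-1BB, rose at day 19 from 284.7 to 581.5 CPM, a ratio of 1.03 (0.88 to 1.18), with 350.4, 712.7, 872.0, 509.0 and 631.4 CPM, and all 5 clones lay above the small level. At day 13 its levels were 150.1 and 144.0 CPM. Of the activation and receptor signal list that holds it, 6 of 15 genes were positive at day 13 (median -0.08) and 11 of 15 at day 19 (median 0.15, or -0.09 with 6 of 15 without 19A).

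Genes of tissue entry and migration fell in part. Cxcr3, the receptor for interferon-induced chemokines, fell at day 19 from 101.7 to 43.0 CPM, a ratio of -1.24 (-1.62 to -0.88), with 76.1, 34.0, 41.4, 5.92 and 7.43 CPM in the 5 clones, all below the small level. Itgb7, an integrin subunit, fell at -1.004 and the chemokine receptor Ccr2 at -1.28. At day 13 Ccr8 fell at -2.48, from 67 UMIs to 13, whereas at day 19 its ratio was 0.85, or 0.17 without 19A. Cx3cr1 fell on both days, at -1.25 and -1.26, but microglia express it and the day-13 ratio was -0.43 without the cells with myeloid RNA and -0.92 without 13A. At day 13 very large and small clones had 26.3 and 16.8 CPM of it in set 2, 36.1 and 35.9 in set 3, and 5.33 and 86.8 in set 4. The small clones of set 1 had 149.7 CPM. The list medians were -0.07 at day 13 and 0.11 at day 19. Of the NK receptor list, 2 of 8 genes were positive at day 13, with a median of -0.15, and 7 of 10 at day 19, with a median of 0.31, but -0.14 with 4 of 9 positive when 19A was left out. The 2 that fell at day 19, Fcgr3 at -1.72 and Tyrobp at -1.06, are also expressed by myeloid cells, whose RNA was in fewer cells of the very large clones. Their part in these ratios was not tested.

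Proliferation genes had a positive sign at day 13, with 21 of 22 members above 0 and a median of 0.37, but 0.12 with 15 of 22 positive when 13A was left out. At day 19, 13 of 22 were positive, with a median of 0.16. None of the list passed the rule. Cells with at least 2 UMIs of Mki67 and Top2a made up 25.8% and 22.1% at day 13 and 25.3% and 25.6% at day 19. In the clones this share went from 0% in 13L, 13M and 13N to 59.4% in 13A, and from 7.41% in 19C to 38.3% in 19B. Interferon response genes depended on the same clone: 2 of 15 were positive at day 13, with a median of -0.13, against 13 of 15, with a median of 0.24, without 13A. At day 19 the median was -0.02, and Oasl2, an interferon-induced gene, fell at -1.003, or -0.92 without 19A. Genes of glycolysis had medians of 0.01 and 0.16, and those of the receptor complex -0.02 and 0.20. Without the cells with myeloid RNA the median changed sign for NK receptors at day 13, to 0.04, for the receptor complex at day 13, to 0.04, for residency genes at day 13, to 0.03, and day 19, to -0.14, for interferon genes at day 19, to 0.09, and for glycolysis at day 19, to -0.04, so these lists have no stable direction. The progenitor medians were -0.87 and -0.47 and the inhibitory medians 0.45 and 0.56 without those cells.

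**Figure D4:**
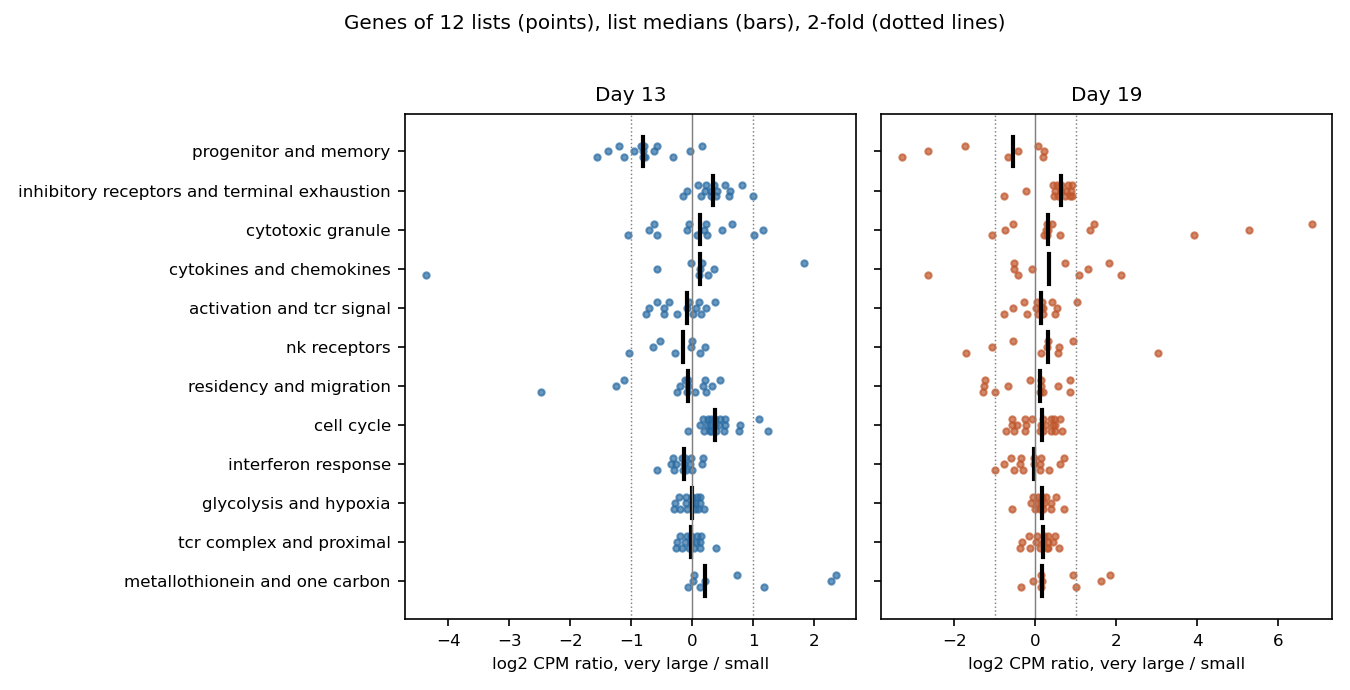
Log2 ratio of very large over small clones for each gene with enough UMIs in 12 lists (points) and the list medians (bars), at each day. Dotted lines mark a 2-fold difference. The progenitor list lies lowest, at -0.80 and -0.54, and the inhibitory list is at 0.34 and 0.64.

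At day 13, among genes with at least 100 UMIs and at least 75% of the clones above the small level, the 12 highest ratios were under 2-fold, from Serpina3g, a serine protease inhibitor, at 0.88 to Cyb5r3 at 0.69, with Entpd1 among them at 0.82. Without 13A, Serpina3g was past 2-fold at 1.22. The 6 that rose had fewer UMIs: Fam20a at 1.77, Cenpo at 1.25, Mfsd11 at 1.14, Arfgap3 at 1.12, Lpar6 at 1.09 and Shld2 at 1.01. They were named because they are few, after their values were seen. Among the 12 lowest, P2ry12 at -2.66, Tmem119 at -1.33, Hmox1 at -1.27, Sparc at -1.25 and Cx3cr1 at -1.25 are genes of microglia or macrophages. The pooled ratios of P2ry12 and Tmem119 rest on small clones of sets 1 and 4, which had 116.4 and 123.2 CPM of P2ry12 and 104.5 and 53.2 CPM of Tmem119. In sets 2 and 3, very large and small clones had 7.02 and 8.97, and 10.03 and 3.78 CPM of P2ry12, and 9.36 and 5.61, and 28.1 and 3.78 CPM of Tmem119. Sparc was also higher in very large clones of sets 2 and 3, at 14.6 against 5.61 and 48.2 against 6.61 CPM. Without the cells with myeloid RNA, P2ry12 and Hmox1 were at -0.78 and Tmem119 and Sparc had at most 2 UMIs. Kbtbd11 at -1.58, Ccnb1ip1 at -1.43 and Klf3, a relative of Klf2, at -1.32 were at -1.47, -1.56 and -1.48 without those cells. Without 13A, Klf3 was at -0.90, Tmem119 at -0.96 and Sparc at -0.86, each under 2-fold. Ccnb1ip1 was below the small level in 14 of 14 clones. Ramp3 was at -1.79, and at -1.55 without those cells, Atf3 at -1.53 and -1.49, and Sct at -1.69 from 95 UMIs in 5 small-clone cells. Of the 32 Sct UMIs in very large clones 23 lay in 1 cell, and the ratio was -2.78 without the top cells and -6.24, from 1 and 66 UMIs, without the cells with myeloid RNA. In set 3 very large clones were above small ones for Ramp3, at 44.1 against 15.1 CPM, and for Atf3, at 108.3 against 103.9 CPM.

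Under the same limits on UMIs and clones, the highest ratio at day 19 was that of Gldc, glycine decarboxylase of the mitochondrial glycine cleavage system, which rose from 13.4 to 48.3 CPM, a ratio of 1.84 (1.19 to 2.56). Clones 19A to 19E had 70.6, 57.1, 15.9, 26.6 and 7.43 CPM, so 19E was below the small level. Sdcbp2 rose at 1.74 (1.097 without 19A), Nrn1, the membrane protein neuritin, at 1.65 (1.02), Igfbp7 at 1.55 (0.73), Myo1e at 1.30, Tmem273 at 1.29 and Cdkn2c, a cell cycle inhibitor, at 1.14. The metallothioneins Mt2, at 1.61, and Mt1, at 1.01, rose too, but 1 cell of 19E held 281 of 649 Mt1 UMIs, and without the top cells they were at 1.12 and 0.36. Among the lowest genes, Apoe at -2.66, Selenop at -2.18, Rhob at -2.12, Sparc at -2.07, Olfml3 at -1.97 and Trem2 at -1.94 moved with the myeloid RNA. Without those cells Apoe was at -0.18, Selenop at -0.54 and Rhob at -0.57, and Sparc, Olfml3 and Trem2 had at most 1 UMI in either group. Hmgn1, a chromatin protein, was at -2.18 with and -2.15 without those cells, and Fam241a at -2.20 and -3.03. The Penk UMIs of small clones lay in 2 cells, and all 729 Ttr UMIs in 1.

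Whether cells of a clone were more alike than cells of different clones was measured in 2 ways, each within a contig set. The share of cell pairs in the same of the 4 classes, averaged over clones, was 43.2% within and 37.8% between very large clones at day 13, with 8 of 13 clones higher within and with values from 25.5% in 13L to 71.8% in 13H. In small clones, where many give few pairs, it was 54.8% within and 36.9% between. The day-19 values were 52.6% and 49.8% in 4 very large clones and 49.1% and 39.8% in small clones. Clone 13A and clone 19B were alone in their sets and have no between value.

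The squared distance on 20 principal components, which held 23.9% and 24.3% of the variance was the other measure. Within-clone distance over between-clone distance was 0.84 in very large clones at day 13, with 11 of 13 below 1, and 0.67 in small clones, with 86 of 101 below 1. At day 19 it was 0.94, with 2 of 4 below 1, and 0.75, with 44 of 56. Clone 13B had the lowest ratio, 0.53, and 13N reached 1.103. The day-19 ratios were 1.07 in 19A, 0.63 in 19C, 1.18 in 19D and 0.87 in 19E. The day-13 value was 0.78 in set 2 and 0.98 in set 3.

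Gene lists differed in the part of the variance between cells, in log2(1 + UMIs) at 5000 UMIs, that lay between clones. The UMIs of a list were summed in each cell, so abundant members weigh most. The share is an estimate that falls below 0 where clones differ less than their cells would by sampling. In the very large clones of day 13 it was 49.8% for the interferon list, 46.5% for cytokines and chemokines, 31.8% for progenitor genes, 22.7% for inhibitory genes, 10.5% for granule genes and 1.44% for residency genes. Among single genes, Ccl5 had 54.4% and Ifi27l2a 42.7%, but Tcf7 had 7.61% and Slamf6 5.72%. The last 2 had 106 and 83 UMIs in the very large sum, against 2298 of Ltb, which is in the same list. Within set 2 alone, with 9 clones, the interferon share was 10.6% and the progenitor share 3.94%, and those of cytokines and of inhibitory genes were 60.8% and 30.9%. The small clones of day 13 had 39.8% for the interferon list, 37.7% for cytokines and chemokines and 28.9% for progenitor genes. They had 40.1% for inhibitory, 36.4% for granule and 21.1% for residency genes. In the very large clones of day 19 the shares were 2.02% for inhibitory genes, 9.25% for granule genes and 32.1% for the interferon list. In small clones they were 51.5%, 52.4% and 42.5%.

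**Figure D5:**
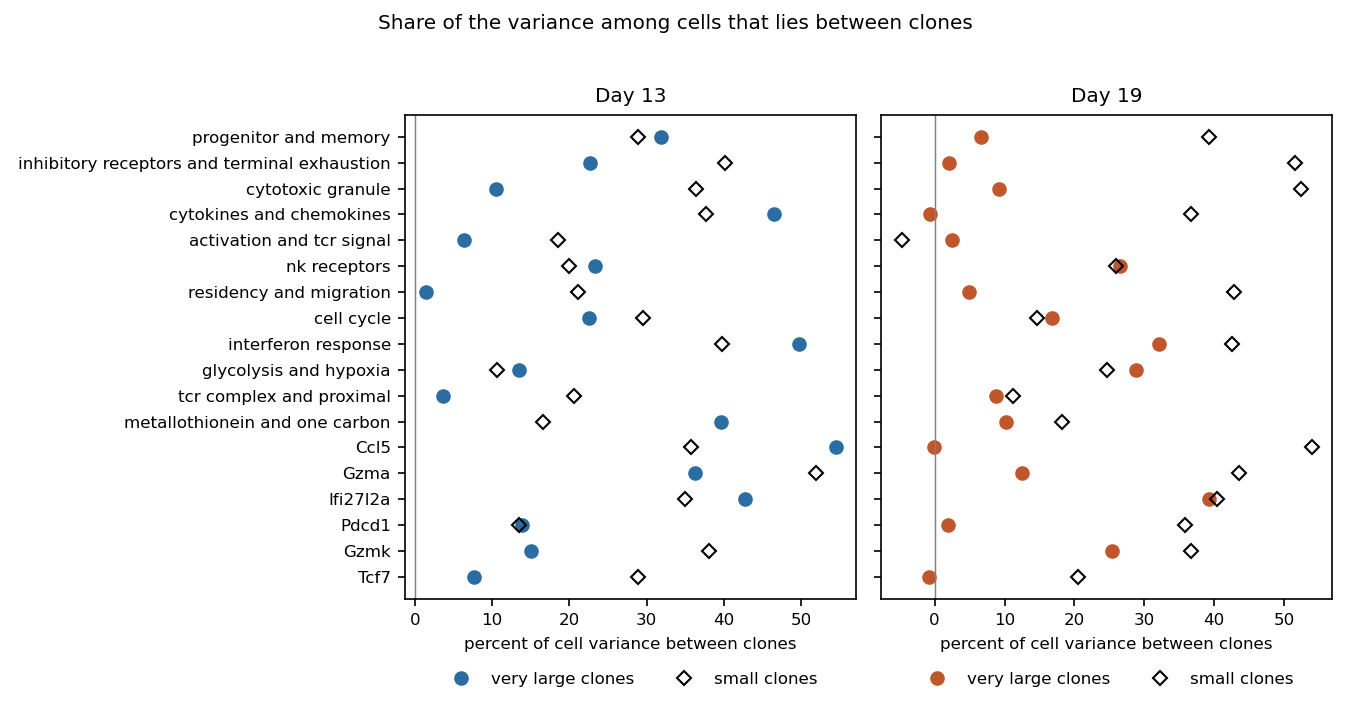
Percent of the variance between cells that lay between clones, for gene lists and single genes, in very large clones (filled points) and small clones (open diamonds) at each day. At day 19 the inhibitory list has 2.02% in very large and 51.5% in small clones, and at day 13 Ccl5 has 54.4% and 35.8%.

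The gene that set the day-13 clones apart most was Ccl5, a chemokine of effector T cells. Its variance among the 14 clones was 1418 times that expected from counting, against a median of 3.09 over 1513 genes. Clone 13C had 21276 CPM, 13K 17432 and 13E 16702, whereas 13B had 548.7, 13A 2012 and 13D 2571. The sums of the size groups were close, at 8116 and 7406 CPM. In 13C all 29 cells had Ccl5 UMIs and the top cell held 10.1% of them. In the low clone 13B, 45.2% of cells were cycling and 38.7% had Havcr2 only. In the low clones 13A and 13D 59.4% and 16.7% were cycling, and 59.4% and 33.3% had Havcr2 only. Whether Ccl5 goes with either was not tested. Gzma went from 12.9 CPM in 13M to 3399 in 13C and 3242 in 13K. Its highest value, 3673 in 13F, came from 5 of 19 cells and was 1926 without the top cell. Gzmb went from 686.5 in 13L to 5278 in 13C. Cd74, Cst3, Lyz2 and Apoe, which antigen-presenting or myeloid cells express, were also among the 10 most variable genes. In 13D 1 cell held 98.6% of the Apoe UMIs and in 13J 1 cell held 450 of the 809 Cd74 UMIs.

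Clone 13A stood apart from the other very large clones of day 13. It was the deepest, with a median of 20502 UMIs per cell, and the only one in set 4. It had 791.9 CPM of Mt1, with UMIs in 31 of its 32 cells, against 2.13 to 200.8 in the other clones and 47.6 in the small clones of its set. It held 68 of the 74 Gldc UMIs of the very large clones, and had 2762 CPM of Ifitm1 and 6251 of the galectin gene Lgals1, the highest of all 14. Interferon response genes were at their lowest there: Ifi27l2a had 642.6 CPM against 2870 to 9220 in the other clones and 3978 in small clones of set 4. Isg15 had 186.6 CPM against 425.3 to 2559, and Irf7 98.7 against 359.4 to 1149. It had no Tcf7 UMI, and Cxcr3 was at 34.7 CPM against 134.0 to 381.5. At day 13 the metallothionein list had a median of 0.20 with this clone and -0.22 without it.

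At day 19, 19C differed from the others by Fcer1g, the Fc receptor gamma chain, which myeloid cells also express, with 3272 CPM and UMIs in 27 of 27 cells against 583.0 to 833.8 CPM, and by Ifitm1 with 6206 CPM. Clone 19B, which has the same alpha chain, had the most Ifi27l2a, 5809 CPM against 1119 to 2679. Clone 19A had, besides its lack of Gzmk, the most Ifng, Csf1 and Klra3, an NK receptor gene, at 133.1 CPM against 0 to 54.1 in the other clones. It also had the most Klrd1 and Klrc1, which form an inhibitory NK receptor pair, at 941.3 and 615.3 CPM, against 453.1 to 792.5 and 245.1 to 391.5. Klra6 was not seen in the very large clones of either day and had 1 UMI in the small clones, against 392 UMIs in single cells of day 13.

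Antibody tags were compared as shares of all tag UMIs. At day 13 PD-1 had a log2 ratio of 0.04 and CD39 0.07, with isotype controls at -0.01, -0.01 and 0.04. Lower tags were farther from 0: GITR, a costimulatory receptor, had -0.34 (-0.46 to -0.23) with 0 of 14 clones above the small level, and CD45 -0.27. GITR had -0.22 with 0 of 5 clones above at day 19. The TIM-3 tag had 0.28, but 17.7% of the UMIs of very large clones lay in 1 cell, and without it the ratio was 0.0023. The day-19 isotype controls were at 0.15, 0.21 and 0.28. CD38 had 0.43 (0.32 to 0.54) and CD39 0.37 (0.32 to 0.42), both overlapping the interval of the highest control (0.09 to 0.46), and PD-1 0.21 and LAG-3 0.25. The TIM-3 tag had 7848 of its 8941 small-clone UMIs in 1 cell, which gave -2.79 with it and 0.19 without it.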

How the data were processed

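RNA, antibody tag and receptor libraries of 1 capture per day were used. In the deposited matrices, values are raw UMI counts by barcode for each gene or tag, and the deposited receptor tables list assembled contigs with UMI counts. The submitters' processing notes name bcl2fastq 2.20, Cell Ranger 4.0.0, STAR 2.7.5c, R 4.1.2, Seurat and the build mm10, with no roles. Cells were selected as stated above, UMI counts were summed per clone and size group, and CPM used all gene UMIs as the total. Where a group had no UMI, its ratio was computed from a floor of 3 UMIs for the whole group. Ratios have exact conditional intervals, shares Clopper-Pearson intervals. With 1 capture per day and no map from sets to animals, no p-value was computed. Calculations used Python 3.11.15 with numpy 2.4.6, scipy 1.17.1, pandas 2.3.3 and matplotlib 3.10.9, and were tested on simulated data.

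Genes named were those of 12 lists, 13 genes given per clone, the 12 highest and 12 lowest ratios per day among genes with at least 100 UMIs and at least 75% of clones on 1 side, and the 10 most variable among very large clones. Receptor, ribosomal, mitochondrial and unnamed predicted genes were left out of the ranks. Principal components used 1000 variable genes. The members, lists and rules were chosen with earlier results of these data known, and the alternatives without the top cell of a gene or tag and without Ly6c2 were chosen after seeing the data. Alternatives concerned depth, clone size limits, weights, contig sets, myeloid and cycling cells, recurring clones and gene minimums. Antibody tag counts were divided by all tag UMIs of the same cells. The value of 1 gene of the progenitor list is not reported here.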

Additional observations from a re-analysis of the deposited data

Results flagged for a closer look

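The granzyme genes Gzmb, Gzmk and Gzmf had a ratio of very large over small clones on opposite sides of 0 on the 2 days, with both counting intervals clear of 0. Gzmb had a log2 ratio of -0.051 (-0.10 to -0.0008) at day 13 and 0.42 (0.35 to 0.49) at day 19. Without 13A the day-13 value was 0.20, on the same side as day 19. Gzmk had 0.65 at day 13 and -0.55 at day 19, and 0.02 at day 19 without 19A, which had 1 Gzmk UMI. Gzmf had -0.71 at day 13 and 1.45 at day 19. At day 13, 636 of its 685 UMIs in small clones were in 1 cell, and without the top cell of each size group the ratios were 2.12 and 0.76, on the same side of 0. In very large clones 444 of 454 UMIs were in 13A, and the day-13 ratio without that clone was -5.79. The difference between the days was not tested, since each day was 1 capture.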

How the results depend on the processing

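Of 263 values of 16 summary results under alternatives, 213 stayed within the tolerance, 47 moved past it and 3 reversed, and of 432 values of single genes 395, 33 and 4 did. The tolerance is wide, since the SD over contig sets can exceed the value (Tcf7 at day 13, -1.56 with an SD of 1.86), so these numbers do not show stability. Values were compared with the spread of each value over contig sets, and counts within 1.5 times. The 6 genes that rose at day 13 became 22 with equal weight per clone, 29 with small cells weighted to the sets of the very large ones, 1 with clone size over all barcodes, 52 from 8000 UMIs, 15 with very large clones from 15 cells, 24 against 2-cell clones, 13 without myeloid RNA, 25 without recurring clones, 10 without top cells, 13 from 20 UMIs per gene, 15 with no minimum and 58 with no condition on clones. The 54 that fell became 317 from 8000 UMIs, 143 from 15 cells, 166 from 20 UMIs and 559 with no minimum. At day 19 the 40 that rose became 75, 121, 23, 64, 79, 123 and 229 with equal weight, weighted sets, size over all barcodes, 2-cell clones, no recurring clones, 20 UMIs and no minimum. The 168 that fell became 93 from 8000 UMIs, 67 without myeloid RNA, 520 without recurring clones, 382 from 20 UMIs and 910 with no minimum.

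The day-13 inhibitory median of 0.34 was 0.52 against 2-cell clones, and that of day 19, 0.64, was 0.39 from 8000 UMIs. The day-19 progenitor median of -0.54 was -0.11 without cycling cells and -1.69 without recurring clones. The pair share of very large clones at day 13 was 38.2% without thinning, and that of small clones 43.6% from 8000 UMIs and 60.3% in 2-cell clones, and at day 19 71.4% without myeloid RNA and 55.7% without recurring clones. The distance ratio of very large clones was 0.62 at day 13 from 8000 UMIs and 1.03 at day 19 without 19A, on the other side of 1. That of small clones was 0.74 from 8000 UMIs and 0.64 with 10 components at day 13, and 0.59 without myeloid RNA at day 19. Gzmc at day 13 was -2.31 without 13A and -5.20 without recurring clones. Leaving out 1 contig set at a time gave 8 to 32 genes that rose and 36 to 130 that fell at day 13, 39 to 62 that rose at day 19, a day-19 progenitor median of -0.89 to 0.022, a very large distance ratio of 0.78 to 0.98 at day 13 and 0.85 to 1.03 at day 19, Gzmc at day 13 of -2.46 to 4.36 and Gzmf at day 19 of -0.24 to 1.90. The gene minimums and fewer cells change how many genes are counted. The cause of the other shifts was not tested.

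No paired analysis by contig set was run, because the labels tie neither the sets nor the 4 multiplexing tags of a day to animals and clonotypes recur between sets. Precision is limited by 5 very large clones at day 19, by low UMI counts of single genes in single clones, and by RNA of single cells that dominates some sums. Equal weight per clone has no meaning for pair shares and distances and was not run for them.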
